A study of Mus musculus with 12 samples.

Results

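Regulatory T cells (Treg) were compared with conventional CD4+ T cells (Tcon) from the lymph nodes of the same study, across all genes that were listed for both cell types. The comparison rests on 6 of the 12 libraries of the series, taken by organ label: 3 Treg and 3 Tcon libraries, numbered 01 to 03 in each cell type. All libraries came from B6.Cg-Foxp3tm2Tch/J mice (FOXP3-IRES-GFP), in which the Foxp3 locus also encodes a green fluorescent protein that marks Foxp3-expressing cells. Library 01 of each cell type came from vehicle treatment (DMSO in the titles), and libraries 02 and 03 from mice given SAH-FOXP3(229-259)C at 25 mg/kg. This agent is a stapled helical peptide directed at FOXP3. Both treatments were injected into the peritoneum daily for 2 days. Treg libraries are labelled CD4+CD25+FOXP3+ and Tcon libraries CD4+, and every library of either cell type also carries a label of naive primary T cells. The labels do not say whether libraries came from separate mice, so every p-value here reflects sample-to-sample spread that could be technical. With 2 of 3 pairs treated, each averaged difference mixes vehicle and peptide, so values are given for each pair.

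Treg are CD4+ T cells that restrain other immune cells. Their identity depends on FOXP3, a forkhead transcription factor that raises some genes and represses others. CD25, encoded by Il2ra, is the alpha chain of the high-affinity interleukin 2 (IL-2) receptor, and Treg take up IL-2 that they make little of themselves. Naive T cells and many resting Treg enter lymph nodes from the blood with the help of the chemokine receptor CCR7.

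The Treg table listed 10405 genes and the Tcon table listed 9886, and the 9784 found in both were tested. The 2 tables had been normalized separately. Across shared genes the median Treg to Tcon ratio in lymph node was 1.06, and Treg values were divided by it, a shift of 0.089 on the log2 scale. Levels are given in CPM, the library-scaled unit of the file headers, after this step. Differences are Treg minus Tcon in log2(CPM + 1), a scale that shrinks the change of low genes. Values within a cell type correlated across genes at 0.996 to 0.997, and values between the cell types at 0.929 to 0.936. These correlations are descriptions, since genes are not independent replicates.

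The label check came first. Foxp3 (mm10 chromosome X, 7573644 to 7595245, plus strand) was at 641, 655 and 682 CPM in Treg libraries 01, 02 and 03 and at 21.8, 23.5 and 24.9 CPM in the matching Tcon libraries. Il2ra (chromosome 2, 11642807 to 11693193) was at 718, 698 and 741 CPM in Treg against 4.801, 3.98 and 3.85 CPM in Tcon. Both genes separated the cell types without overlap, and since both proteins define the labelled Treg gate, their differences check the labels and are not findings. Ikzf2, which encodes the Treg transcription factor Helios, was at 879, 932 and 968 CPM against 16.96, 15.7 and 12.9 CPM. Nrp1, which encodes neuropilin 1, a surface receptor of thymus-derived Treg, was at 478, 450.1 and 499 CPM against 11.3, 15.6 and 11.8 CPM. The 4 markers differed by 4.76 (Foxp3), 7.11 (Il2ra), 5.85 (Ikzf2) and 5.11 (Nrp1) log2. Both cell types carried the T cell markers. Cd4 was lower in Treg, at 662 ± 7.64 against 996 ± 26.2 CPM (SD, n = 3 each), while Cd3e was at 378 ± 12.1 against 342 ± 16.9 CPM and Cd3d at 344 ± 12.3 against 400.3 ± 27.4 CPM.

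Some exons of Foxp3 overlap Ccdc22 and Ppp1r3f on the other strand. The library kit was stranded per the labels, but no source used here says whether counting used strand. Ccdc22 was at 39.5 ± 2.12 CPM in Treg against 40.4 ± 2.34 CPM in Tcon and did not pass the test. Ppp1r3f was at 23.4 ± 0.953 against 7.99 ± 0.322 CPM, so its difference of 1.44 log2 cannot be told apart from reads of Foxp3 if strand was not used.

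**Figure D1:**
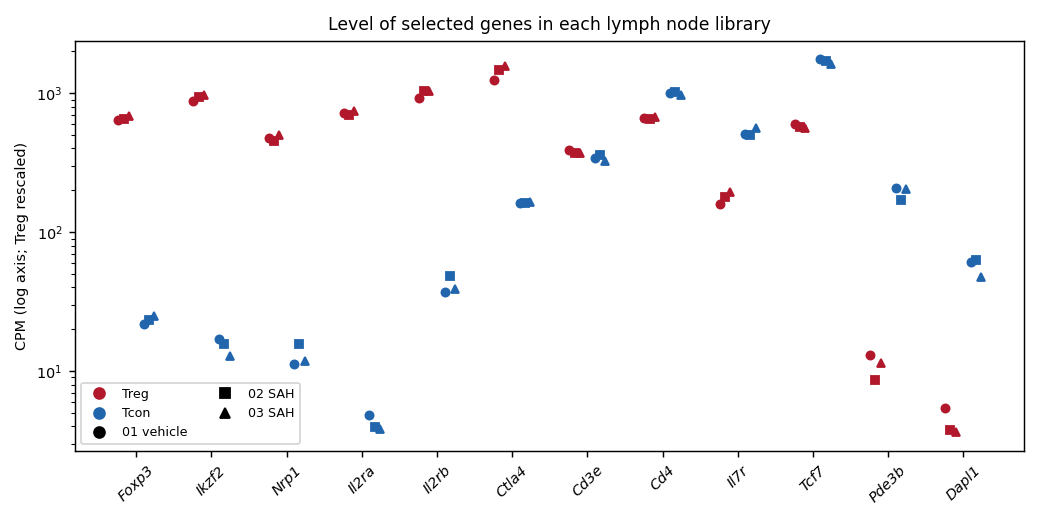
Levels of 12 genes in the 6 lymph node libraries, in CPM on a log axis, with Treg values rescaled by the median ratio. Colours give the cell type and marker shapes the library number; Foxp3, Ikzf2, Nrp1 and Il2ra lie far above Tcon in all 3 Treg libraries, and Tcf7, Il7r, Pde3b and Dapl1 lie below.

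Between the cell types, 7222 of the 9784 tested genes were called (73.8%) at an adjusted p under 0.05 by limma with the library number as a block and Benjamini-Hochberg adjustment. Of these, 3619 were higher in Treg (37%) and 3603 lower (36.8%). Most calls were small, with 5203 of them under 1.5-fold, and the median absolute difference over all genes was 0.27 log2. The split depends on the rescaling between the tables: without it, 4404 genes were called higher and 2824 lower, so that 60.9% of calls were higher against 50.1% with it. Because a call alone is common here, results are read mainly at the level of called genes that differed by more than 2-fold. There were 838 such genes (8.57%), 608 higher in Treg (6.21%) and 230 lower (2.35%), and 192 and 40 of these passed 4-fold. All 838 had the same sign in 3 of 3 pairs and did not overlap between the cell types, a property that 71.3% of all tested genes shared. The vehicle pair, which holds no peptide-treated library, is among the pairs by which these genes were chosen, so it is no independent check. In it all 838 had the same sign as the average and 756 were over 2-fold, with a smallest fold of 1.51. In these bulk samples, fewer cells that express a gene and less RNA per cell cannot be told apart.

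**Figure D2:**
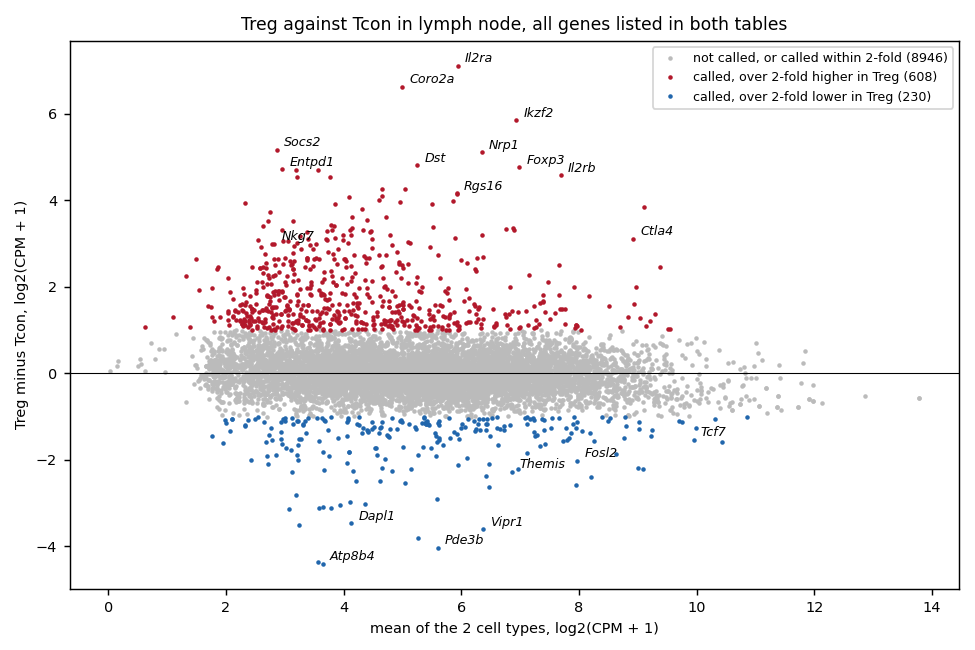
Treg minus Tcon difference against mean level for the 9784 genes listed in both tables, both axes on the log2(CPM + 1) scale. Red points are the 608 genes called over 2-fold higher in Treg and blue points the 230 over 2-fold lower; the higher side extends to 7.11 and the lower side to -4.40.

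After Il2ra, the gene most raised in Treg was Coro2a, which encodes an actin-binding coronin (chromosome 4, 46536937 to 46602202, minus strand). It was at 301, 319 and 325 CPM in Treg against 1.79, 2.94 and 1.99 CPM in Tcon, a difference of 6.62 (95% confidence interval 6.45 to 6.79, adjusted p = 2.52e-14). Next to the markers stood Socs2, a feedback inhibitor of cytokine receptors, at 39.8, 41.4 and 46.1 CPM against 0.187, 0.166 and 0.281 CPM. The Tcon libraries thus held little of either transcript. Dst, which encodes the cytoskeletal linker dystonin, was at 203, 185 and 214 CPM in Treg against 6.48, 6.0004 and 6.08 CPM in Tcon. Entpd1 encodes CD39, an enzyme that breaks down extracellular ATP on the way to adenosine, and was at 37.7, 37.1 and 41.5 CPM against 0.427, 0.712 and 0.408 CPM. Osbpl3 (an oxysterol-binding protein relative), Ptprj (a receptor tyrosine phosphatase), Il2rb (the IL-2 receptor beta chain) and Plagl1 (a zinc finger transcription factor) completed the 12 largest, at 4.71, 4.71, 4.58 and 4.54 log2.

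On the lower side the largest difference was that of Atp8b4, a P4-type ATPase of the phospholipid flippase family (chromosome 2, 126320973 to 126500674, minus strand). It was at 1.81, 1.64 and 1.74 CPM in Treg against 55.1, 57.99 and 56.4 CPM in Tcon, a difference of -4.396 (-4.56 to -4.24, adjusted p = 3.50e-13). Ggt5, a gamma-glutamyltransferase that acts on leukotriene C4, was at 1.47, 1.49 and 1.95 CPM against 54.2, 50.1 and 53.4 CPM. Pde3b, a phosphodiesterase that degrades cyclic AMP and a known target of FOXP3 repression (chromosome 7, 114415281 to 114539251), was at 13.1, 8.62 and 11.5 CPM against 209, 169 and 205 CPM. Each of the 3 had its highest Treg library far below its lowest Tcon library. Vipr1, a receptor for vasoactive intestinal peptide, was at 25.4, 19.2 and 23.996 CPM against 289.6, 285 and 286 CPM. Hs3st3b1 (a heparan sulfate sulfotransferase), App (the amyloid precursor protein), Dapl1, Epas1 (the hypoxia-inducible factor HIF-2 alpha), Trim36 (a ubiquitin ligase), Arhgap29 (a GTPase-activating protein), Slc16a5 (a transporter of the monocarboxylate family) and Ramp3 (a receptor activity-modifying protein) differed by -3.804 to -3.04 log2.

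The promoters of these genes were searched for the letters of motifs bound by FOXP3 and its partners. The window was the 250 bases before each gene start in the RefSeq promoter table (GRCm38.p6). The motifs were TGTTTAC for forkhead factors, TGTGGT for RUNX factors and TGACTCA for AP-1, on both strands. Of the 24 genes with the largest differences, 16 were in the table and 3 of them held a motif, all 3 from the lower side and with 1 match each, so no shown match overlaps another. These 3 windows are shown with the motif in capitals, 5′ to 3′ along the gene. The Atp8b4 and Arhgap29 windows precede starts that lie inside the annotated span of the gene.
Atp8b4 (AP-1, chr2:126491554-126491803, minus strand): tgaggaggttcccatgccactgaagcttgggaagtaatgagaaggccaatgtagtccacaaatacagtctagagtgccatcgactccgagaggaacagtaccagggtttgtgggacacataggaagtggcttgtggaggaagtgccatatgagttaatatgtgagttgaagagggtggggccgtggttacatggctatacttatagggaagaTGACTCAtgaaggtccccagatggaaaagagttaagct
Dapl1 (forkhead on the opposite strand, chr2:59484403-59484652, plus strand): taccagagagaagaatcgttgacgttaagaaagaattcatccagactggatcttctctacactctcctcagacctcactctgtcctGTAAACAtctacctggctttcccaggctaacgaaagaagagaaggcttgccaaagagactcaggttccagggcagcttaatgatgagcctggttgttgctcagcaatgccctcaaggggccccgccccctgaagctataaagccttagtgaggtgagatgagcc
Arhgap29 (RUNX on the opposite strand, chr3:121967556-121967805, plus strand): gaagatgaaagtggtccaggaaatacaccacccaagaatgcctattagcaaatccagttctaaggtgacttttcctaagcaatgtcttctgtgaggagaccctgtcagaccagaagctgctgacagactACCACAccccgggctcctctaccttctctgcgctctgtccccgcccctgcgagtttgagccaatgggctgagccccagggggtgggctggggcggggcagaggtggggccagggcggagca
A match is a description of letters and not a shown binding site. Counted by gene, the forkhead letters were in 2.61% of tested genes with a window, 3.82% of the genes over 2-fold higher in Treg and 3.45% of those over 2-fold lower. The RUNX letters were in 12.9%, 14.8% and 12.1% of the same groups, and the AP-1 letters in 3.53%, 6.97% and 4.60%. Over all genes of the promoter table the shares were 3.54%, 15.9% and 5.16% for forkhead, RUNX and AP-1. These shares were not tested.

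The list of Treg transcription factors had 30 members, all tested: 19 were higher in Treg, 8 lower and 3 did not pass, and 10 were over 2-fold higher and 2 over 2-fold lower. Those over 2-fold were 33.3% (higher) and 6.67% (lower) of the list, against 6.21% and 2.35% of all tested genes. For this and each list below, 37% of all tested genes were called higher and 36.8% lower. The list counts Foxp3, which is part of the labelled gate. The list's median difference was 0.46, against 0.00087 over all tested genes. Ikzf4, which encodes Eos, a FOXP3 co-repressor related to Helios, was at 107, 98.4 and 104 CPM against 5.04, 4.81 and 5.21 CPM. Ahr, a ligand-activated transcription factor, was higher by 2.22 log2. Other members of the list went the other way. Ikzf1, which encodes Ikaros, was lower at 569, 553 and 585 CPM in Treg against 1194, 1194 and 1259 CPM in Tcon. Id2, an inhibitor of helix-loop-helix factors, was lower (a difference of -1.39). Of the RUNX complex, a FOXP3 partner, Runx3 (-0.71) and its cofactor Cbfb (-0.38) were lower, and Runx1 was at 93.1 ± 4.25 against 100.1 ± 12.5 CPM and did not pass, though it did without pair 02 (-0.18, adjusted p = 0.00477). Gata3, named here after its values were seen, was higher by 0.82.

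Treg surface receptors formed the list with the highest median, 3.12: all 19 tested members were higher in Treg. Of these 17 were over 2-fold (89.5%, against 6.21% of all tested genes). The list holds known Treg genes and counts Il2ra, which is part of the labelled gate. A further 7 members were listed in the Treg table alone. Il2rb was at 926, 1044 and 1040 CPM in Treg against 37.02, 48.3 and 38.7 CPM in Tcon. Cd83, a surface glycoprotein of activated lymphocytes and dendritic cells, was at 85.7, 98.9 and 105 CPM against 4.53, 5.72 and 4.82 CPM. Neither gene's groups overlapped. The checkpoint receptors Ctla4, Tigit, Lag3 and Pdcd1 were named after their values were seen and differed by 3.12, 2.81, 3.29 and 2.65. Ctla4, whose product removes CD80 and CD86 from antigen-presenting cells, was at 1247, 1474 and 1576 CPM in Treg against 163, 161 and 166 CPM in Tcon.

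Of 12 tested suppressive effectors, 11 were higher in Treg and 1 was lower, with 9 and 1 of these over 2-fold. These were 75% (higher) and 8.33% (lower) of the list, against 6.21% and 2.35% of all tested genes. Entpd1 and Socs2, described above, led the list. Fgl2, a secreted fibrinogen-like suppressor protein, was at 20.03, 19.3 and 16.5 CPM against 0.213, 0.356 and 0.2297 CPM, and Dusp4, a phosphatase of MAP kinases, at 334, 379 and 415 CPM against 29.9, 38.3 and 39.5 CPM. The lower member was Prf1, which encodes the pore-forming protein perforin, at 3.997, 3.38 and 4.09 CPM in Treg against 11.04, 11.6 and 10.95 CPM in Tcon. No Treg library reached the Tcon level of Prf1.

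Among 11 tested genes that FOXP3 is known to repress, 7 were lower in Treg, all 7 over 2-fold, 3 were higher and 1 did not pass (median -1.31). Members over 2-fold were 63.6% (lower) and 9.09% (higher) of the list, against 2.35% and 6.21% of all tested genes. Beside Pde3b, Cd40lg, the CD40 ligand by which helper T cells activate B cells, was at 22.01, 23.4 and 25.5 CPM in Treg against 89.2, 97.1 and 87.2 CPM in Tcon. Il7r, the IL-7 receptor alpha chain that sustains naive T cells, was at 159, 178 and 196 CPM against 508, 499 and 564 CPM. Tcf7, which encodes TCF1, a transcription factor of naive T cells, was at 605, 573 and 562 CPM against 1751, 1694 and 1610.2 CPM. The members that went against the list were Ifng, the type 1 cytokine interferon gamma (8.02, 8.595 and 9.27 CPM against 3.07, 4.29 and 3.47 CPM), Id3 (0.83) and Ptpn22, a phosphatase of T cell receptor signalling (0.11, adjusted p = 0.0535 without pair 03). Bach2, a transcriptional repressor, was at 209, 182 and 196 CPM against 218, 173 and 195 CPM, with overlapping groups, and was called higher without rescaling (0.098, adjusted p = 0.0335).

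Naive T cell genes were mostly lower in Treg: of 21 members 15 were lower, 11 of them over 2-fold, 1 was higher and 5 did not pass (median -1.01). The 11 made up 52.4%, against 2.35% of all tested genes. Dapl1 was at 5.399, 3.79 and 3.65 CPM against 61.4, 62.7 and 47.2 CPM. Igfbp4, which encodes an insulin-like growth factor binding protein, was at 124, 126 and 133 CPM against 617, 715 and 693 CPM. Als2cl was lower (a difference of -1.86), but shares exon sequence with Tmie on the other strand, which was also lower (-2.48), so the 2 cannot be told apart if strand was not used. The transcription factors Lef1 and Satb1, named after their values were seen, were lower (differences of -1.497 and -1.31). Il6ra, an IL-6 receptor chain, was the member called higher, by 0.12, and its call was lost in the fit without the block (adjusted p = 0.0639) and without pair 03 (0.119). Cd44, the memory and activation marker that naive T cells hold low, was at 172 ± 5.24 CPM in Treg against 66.2 ± 6.47 CPM in Tcon, and was named after its values were seen.

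**Figure D3:**
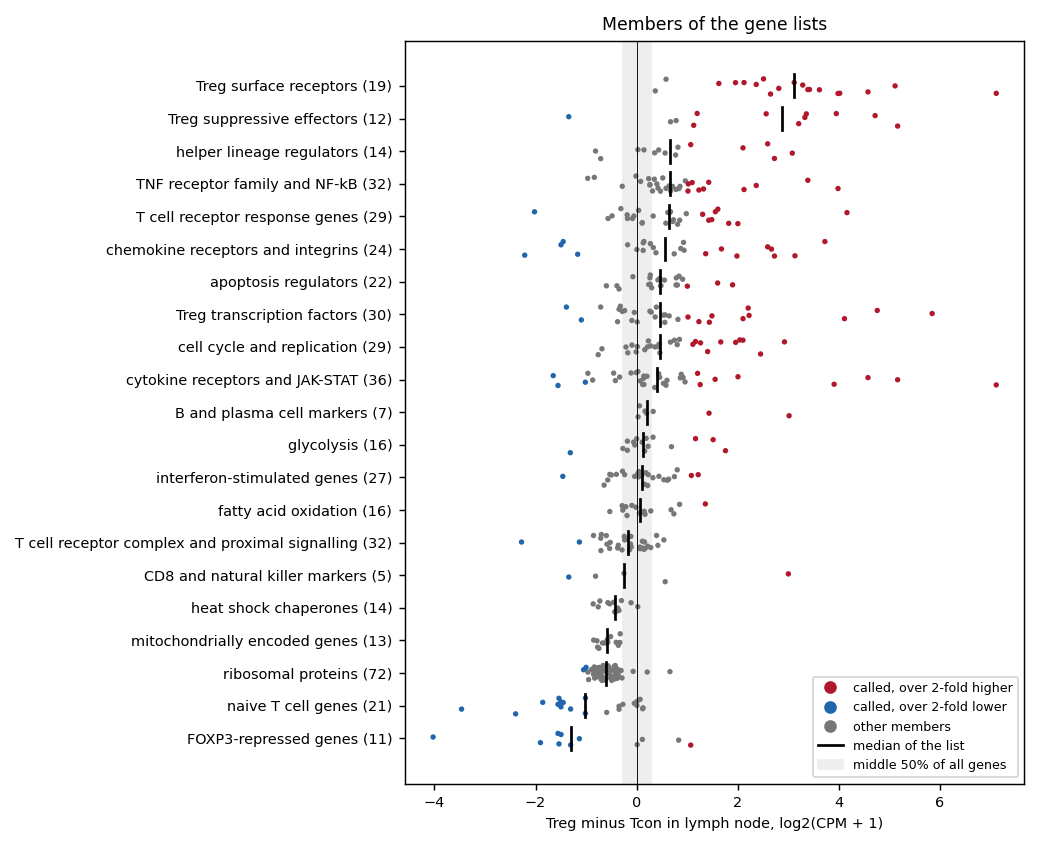
Treg minus Tcon difference, log2(CPM + 1), of each tested member of 21 gene lists with at least 5 tested members, with the number tested in brackets. Black bars are list medians and the grey band holds the middle 50% of all tested genes; medians run from -1.31 for FOXP3-repressed genes to 3.12 for Treg surface receptors.

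IL-2 acts through a receptor of alpha, beta and gamma chains that activates JAK1, JAK3 and STAT5, and STAT5 in turn raises Cish and Socs2, which limit the signal. Of 36 tested cytokine receptor and JAK-STAT genes, 24 were higher in Treg, 9 lower and 3 did not pass. Those over 2-fold were 8 higher (22.2%) and 3 lower (8.33%), against 6.21% and 2.35% of all tested genes. The higher ones count Il2ra of the labelled gate. The alpha and beta chain genes were raised as given above. The shared gamma chain gene Il2rg was at 374, 417 and 399 CPM against 419.8, 449.9 and 416 CPM, a difference of -0.11 with overlapping libraries, and its call was lost without pair 01 (adjusted p = 0.0796), without the block (0.0983) and without rescaling (0.590). Downstream, Jak3 was higher by 1.26, Stat5a by 0.56 and Stat5b by 0.53, whereas Jak1 was lower (-0.42), genes named after their values were seen. Cish was at 156, 180.1 and 189 CPM in Treg against 9.76, 11.8 and 10.6 CPM in Tcon. Receptor chains for other cytokines differed in both directions. The higher ones, likewise named after their values were seen, included the IL-10 receptor chains Il10ra (2.004) and Il10rb (0.96), the TGF-beta receptor Tgfbr1 (1.55), Il15ra (0.92) and the type I interferon receptor chains Ifnar1 (0.600) and Ifnar2 (0.46). The lower ones included Ifngr2 (interferon gamma receptor beta chain, -1.65), Il7r (-1.56), Tgfbr2 (the partner of Tgfbr1 in the TGF-beta receptor, -1.02) and Il4ra (IL-4 receptor alpha chain, -0.97). Jak2 (-0.0073), Stat4 (0.025) and the IL-6 signal transducer Il6st (0.068) did not pass, but each was called higher without rescaling (adjusted p = 0.0483, 0.0247 and 0.00113).

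Genes of homing and adhesion moved both ways. Of 24 tested chemokine receptors and integrins, 17 were higher in Treg and 5 lower. Those over 2-fold were 8 higher (33.3%) and 4 lower (16.7%), against 6.21% and 2.35% of all tested genes. Ccr2, a receptor for inflammatory chemokines, was at 21.3, 23.9 and 24.98 CPM against 0.533, 0.949 and 1.098 CPM. Ccr4 and Ccr8, receptors of skin-homing and tissue Treg, were higher by 3.13 and 2.67, and Cxcr5, which leads cells to B cell follicles, by 2.73. The lower genes included 2 of recirculation through lymph nodes. Ccr7, the receptor that guides T cells into the node, was at 195, 262 and 323 CPM in Treg against 587, 742 and 861 CPM in Tcon. S1pr1, the receptor for exit along sphingosine 1-phosphate, was at 355, 345 and 378 CPM against 923, 989 and 1047 CPM. Gpr183, an oxysterol receptor that positions lymphocytes, was lower (a difference of -2.21), as was the integrin chain gene Itgb3 (-1.17). Cxcr6 did not pass, at 3.43 ± 0.544 against 3.01 ± 0.443 CPM, but was called without pair 01 (0.32, adjusted p = 0.0279).

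The tumour necrosis factor receptor family and NF-kB list had 27 of 32 members higher in Treg and 3 lower (median 0.66). Those over 2-fold were 10 higher (31.3%) and 0 lower, against 6.21% and 2.35% of all tested genes. Tnfrsf4, which encodes the costimulatory receptor OX40, was at 216, 247 and 228 CPM against 12.1, 14.4 and 14.4 CPM. Tnfrsf9, which encodes 4-1BB, was at 151, 148 and 140 CPM against 14.3, 13.9 and 11.2 CPM. Tnfrsf18 (GITR) and Tnfrsf1b (TNF receptor 2) were higher by 2.37 and 2.12. The ubiquitous TNF receptor 1 gene, Tnfrsf1a, went the other way, at 30.3, 31.9 and 29.5 CPM against 53.5, 64.8 and 64.8 CPM, with Tnfrsf26 (-0.84) and Tnfsf11, which encodes RANK ligand (-0.29).

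The T cell receptor complex and its proximal signalling genes differed little: of 32 members 10 were higher, 20 lower and 2 did not pass (median -0.18). Those over 2-fold were 0 higher and 2 lower (6.25%), against 6.21% and 2.35% of all tested genes. Themis, an adaptor that tunes receptor signals during thymic selection, was at 53.3, 47.05 and 55.8 CPM against 266, 241 and 261 CPM, without overlap. The Tec kinase gene Txk and the adaptor gene Pag1 were lower (differences of -0.85 and -0.71). Cd2 and Cd5, which encode surface proteins that modulate receptor signals, were higher by 0.54 and 0.42.

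Genes that T cell receptor signals induce were more often higher in Treg than lower, with 18 of 29 higher, 6 lower and 5 not passing. Those over 2-fold were 8 higher (27.6%) and 1 lower (3.45%), against 6.21% and 2.35% of all tested genes. Rgs16, a regulator of G protein signalling, was at 258, 253 and 256 CPM against 12.5, 14.7 and 12.99 CPM. The AP-1 gene Fos was at 1076, 1001 and 924 CPM in Treg against 233, 255 and 259 CPM in Tcon, and Fosb and Rgs1 were higher by 1.61 and 1.82. Their AP-1 relative Fosl2 was lower, at 95.4, 130.3 and 142 CPM against 359, 552 and 606 CPM. Within the AP-1 family the members therefore differed in direction. Jun was at 597 ± 34.99 against 639 ± 119.8 CPM and Jund at 284, 291 and 341 CPM against 290.1, 184 and 485 CPM. Jund did not pass, and its 3 pairs differed by -0.032, 0.66 and -0.51, so that leaving out pair 02 turned its value to -0.27 (adjusted p = 0.00507) and leaving out pair 03 to 0.31 (0.0221). Jun passed without pair 02 (-0.198, adjusted p = 0.00418). Cd69, an early activation marker that retains cells in the node, was lower (a difference of -0.31).

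Of 14 tested regulators and products of helper lineages, 11 were higher in Treg, 2 lower and 1 did not pass. The 5 over 2-fold higher made up 35.7%, against 6.21% of all tested genes. Il12rb1, an IL-12 and IL-23 receptor chain, was at 35.9, 39.2 and 36.8 CPM against 3.41, 4.25 and 3.01 CPM. Cxcr3, a receptor of type 1 responses, and Rora, a nuclear receptor of type 17 and tissue Treg programs, were higher by 2.59 and 2.104. Eomes, a T-box factor of cytotoxic cells, was lower (a difference of -0.81), at 3.38, 1.92 and 2.92 CPM against 6.37, 5.597 and 4.59 CPM. Its relative Tbx21, which encodes T-bet, was higher by 0.77 at low levels and was named after its values were seen.

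Cell cycle genes had 22 of 29 tested members higher in Treg, 5 lower and 2 that did not pass. Those over 2-fold were 10 higher (34.5%) and 0 lower, against 6.21% and 2.35% of all tested genes. Another 7 members were listed in the Treg table alone. Mki67, which encodes the proliferation marker Ki-67, was at 105, 123 and 135 CPM against 16.9, 15.9 and 12.4 CPM. Tk1 (thymidine kinase), Ccna2 (cyclin A2) and Cdk6 were higher by 2.45, 2.103 and 2.04. Not every replication gene was raised with them. Pcna, the DNA polymerase clamp, was lower at 168, 183 and 187 CPM in Treg against 251, 307 and 313 CPM in Tcon. The helicase subunit Mcm7 was at 52.7 ± 2.16 against 52.3 ± 3.89 CPM and did not pass, and Cdkn1b, the p27 cell cycle inhibitor, was lower (a difference of -0.76).

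Of 22 tested apoptosis regulators 18 were higher in Treg, 3 lower and 1 did not pass. The 3 over 2-fold higher made up 13.6%, against 6.21% of all tested genes. Both protective and death-promoting genes were among the higher ones. Bcl2l1, which encodes the survival protein Bcl-xL, was at 51.6, 55.8 and 55.8 CPM against 18.3, 17.03 and 16.5 CPM. Pmaip1, which encodes the death-promoting protein Noxa, was at 54.998, 77.2 and 89.4 CPM against 14.1, 20.1 and 22.9 CPM. The survival gene Mcl1 was lower (a difference of -0.39), and so were the death-promoting genes Bbc3, which encodes Puma (-0.599), and Bcl2l11, which encodes Bim (-0.35). Bcl2a1b and Bcl2a1d, at 1.003 and 0.91, are near-identical copies between which reads could be split.

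The medians of the metabolic lists lay close to that of all genes. Glycolysis had 9 of 16 tested members higher, 4 lower and 3 that did not pass (median 0.13). Of its members 3 were over 2-fold higher (18.8%) and 1 over 2-fold lower (6.25%), against 6.21% and 2.35% of all tested genes. Fatty acid oxidation had 7 of 16 higher, 5 lower and 4 that did not pass (median 0.069), with 1 over 2-fold higher (6.25%) and 0 lower. In glycolysis a hexokinase and 3 transporters differed most. Hk2 (hexokinase 2) was at 10.3, 11.8 and 11.97 CPM against 2.16, 2.96 and 2.88 CPM, the glucose transporter gene Slc2a3 was higher by 1.16 and the lactate exporter gene Slc16a3 by 1.51. The lactate and pyruvate transporter gene Slc16a1 was lower, at 42.02, 49.4 and 57.4 CPM against 101, 125 and 150.5 CPM. Pkm, the pyruvate kinase gene, was at 497 ± 22.4 against 519 ± 42.3 CPM and did not pass. In fatty acid oxidation, Decr1, an enzyme for unsaturated chains, was higher by 1.36 and Acadm, the medium-chain dehydrogenase, lower (a difference of -0.53).

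Translation and mitochondrial transcripts took a smaller share of Treg libraries. Of 72 ribosomal protein genes 69 were lower in Treg, 1 was higher and 2 did not pass, with 2 over 2-fold lower (median -0.60). The share over 2-fold lower, 2.78%, was near the 2.35% of all tested genes. Their summed level was 38113 to 38766 CPM in the Treg libraries and 53693 to 66727 CPM in the Tcon libraries. Rps24 was at 909.6, 886 and 851 CPM against 1681, 2026 and 1791 CPM and Rpl5 at 1298, 1338 and 1289.7 CPM against 2324, 2898 and 2668 CPM, and Rps27l, a paralog of Rps27, was the member called higher (0.66). Ribosomal protein genes have many near-identical pseudogenes, between which reads could be split, and the symbols Rps3a and Rps3a1 carry identical values and count as 2 of the 72. All 13 genes of the mitochondrial genome were lower, 0 of them over 2-fold (median -0.58), summing to 33900 to 35422 CPM in Treg and 51935 to 54155 CPM in Tcon. Without the rescaling the medians of these lists were -0.51 and -0.49. Levels in CPM are shares of a library, and total RNA per cell was not measured.

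Interferon-stimulated genes did not move as a block: of 27 members 13 were higher, 8 lower and 6 did not pass (median 0.10). The share called, 77.8%, was near the 73.8% of all tested genes. Those over 2-fold were 2 higher (7.41%) and 1 lower (3.70%), near the 6.21% and 2.35% of all tested genes. Mx1, an antiviral GTPase, was at 10.3, 16.3 and 11.998 CPM against 3.81, 6.52 and 4.57 CPM and Ifi27l2a was higher by 1.08. Oas2, an antiviral nucleotide synthetase, was lower at 13.9, 20.7 and 12.2 CPM against 44.7, 50.04 and 37.1 CPM, while its relative Oas1a was higher by 0.75. For Mx1, Oas2 and Oas1a the highest library of each cell type was 02. Oasl2 was lower (a difference of -0.53), with adjusted p = 0.0524 in the fit without the block.

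Heat shock genes were lower in Treg for 12 of 14 tested members, 0 of them over 2-fold, and higher for 0 (median -0.43). The inducible Hsp70 gene Hspa1a was at 20.2, 73.9 and 59.6 CPM in Treg libraries 01, 02 and 03, against 29.3, 86.1 and 165 CPM in the Tcon libraries. Hspa1b was at 25.04, 88.8 and 75.6 CPM against 37.5, 112 and 199.6 CPM. The vehicle library was the lowest in both cell types and the cell types overlapped across numbers, so that these differences hold within pairs only. Hspa1a and Hspa1b are near-identical copies between which reads could be split. Without the block, Hspa1a, Hspa1b and Hspa1l lost their calls (adjusted p = 0.270, 0.243 and 0.122). The constitutive chaperone gene Hsp90ab1 was at 1867 ± 98.6 against 2027 ± 274 CPM and the heat shock regulator Hsf1 at 67.03 ± 2.78 against 65.97 ± 1.36 CPM, and neither passed, though Hsp90ab1 did without pair 01 (-0.19, adjusted p = 0.000947) and Hsf1 without rescaling (0.11, adjusted p = 0.0431).

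**Figure D4:**
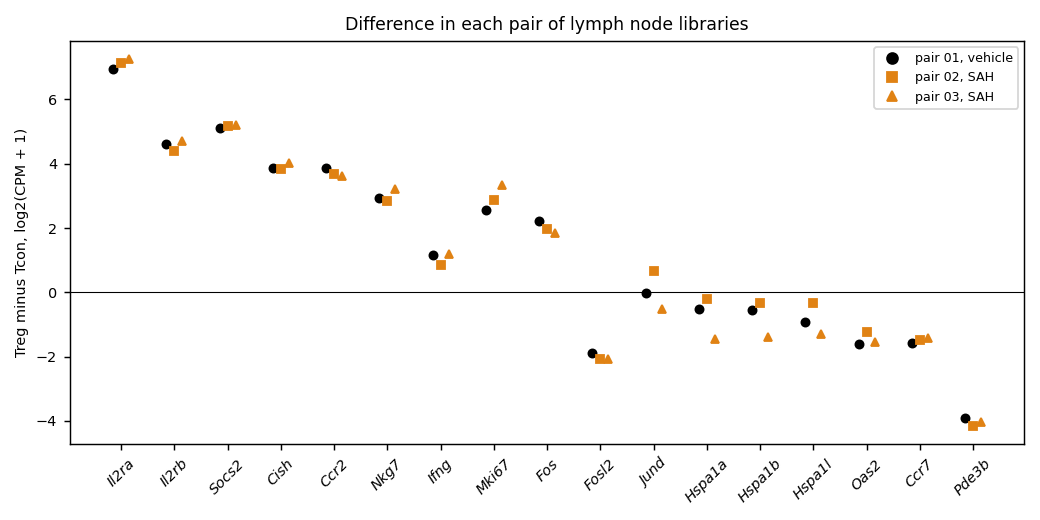
Treg minus Tcon difference, log2(CPM + 1), of 17 genes in each of the 3 pairs of lymph node libraries, with black for the vehicle pair and orange for the peptide pairs. The pairs lie close together for Il2ra, Socs2 and Pde3b and spread widest for Jund and the Hsp70 genes.

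Few markers of other cell types were listed in both tables. Of 17 B and plasma cell markers 7 were tested, and the defining markers Ms4a1 and Pax5 were in neither table. Cd79b, a B cell receptor component, was in the Treg table alone, at 8.58, 8.23 and 8.86 CPM as deposited. Of the 7, Cd74, the invariant chain, was at 38.9, 50.5 and 50.02 CPM in Treg against 3.39, 5.88 and 5.56 CPM in Tcon and Cd22 at 5.15, 6.79 and 5.15 CPM against 1.07, 2.23 and 1.25 CPM. The 5 others did not pass, among them the class II gene H2-Aa at 0.391, 1.13 and 1.39 CPM against 0.427, 1.28 and 1.05 CPM. The summed B cell list was 46.9 to 63.0 CPM in Treg and 7.73 to 12.3 CPM in Tcon, and most of this difference was that of Cd74 and Cd22. The 5 that did not pass summed to 2.87 to 6.399 CPM in Treg and 3.28 to 4.22 CPM in Tcon. Of 15 myeloid markers 3 were tested, summing to 5.65 to 7.31 CPM in Treg and 10.4 to 11.9 CPM in Tcon. Itgam (-1.32) and Cd68 (-0.38) were lower in Treg, and Lyz2 was higher, at 1.22, 1.25 and 0.847 CPM against 0.08001, 0.664 and 0.179 CPM. Csf1r and Tyrobp were in the Treg table alone, at 0.195, 0.239 and 0.1501 CPM and 0.0244, 0.196 and 0.0751 CPM. Of 11 CD8 and natural killer markers 5 were tested, summing to 38.2 to 38.6 CPM against 31.0 to 34.4 CPM. Nkg7, a granule protein gene of cytotoxic cells, was higher in Treg at 17.2, 21.1 and 18.3 CPM against 1.36, 2.09 and 1.07 CPM. Klrb1c was higher by 0.56 at low levels, 1.24, 1.35 and 1.01 CPM against 0.480, 0.664 and 0.332 CPM, and was listed in both tables through spleen. Prf1 and Eomes were lower, and Cd8b1 differed by -0.25 (adjusted p = 0.115 without pair 02 and 0.0650 without rescaling). Klrk1, Xcl1 and Klrd1 were in the Tcon table alone, at 0.8801, 0.593 and 0.587 CPM, 0.5601, 0.854 and 0.562 CPM and 12.1, 11.7 and 9.57 CPM. Klrk1 and Xcl1 were listed through spleen Tcon, at 12.0, 7.35 and 9.38 CPM and 17.2, 9.40 and 13.0 CPM. Their listing therefore shows no lymph node difference. Of 9 red cell and platelet markers 0 were tested, and of 8 stromal markers 1, the endothelial and leukocyte gene Pecam1 (-0.201). The part of other cells in any of the differences above was not tested.

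Genes listed for 1 cell type only cannot be tested, since the other table gives no value for them. In every listed gene the third-highest of the 6 libraries of that cell type was at least 1.98 CPM (Treg) or 1.97 CPM (Tcon), so a gene missing from a table may still have been transcribed. The Treg table alone listed 621 genes, 173 of them at a lymph node mean of 5 CPM or more, and the Tcon table alone 102 genes, 25 of them at 5 CPM or more. Values for these genes are as deposited, without the rescaling. A gene with all 3 lymph node values under 1.98 CPM (Treg) or 1.97 CPM (Tcon) was listed through its spleen libraries. Lrrc32, which encodes GARP, the receptor that holds latent TGF-beta on Treg (chromosome 7, 98489283 to 98502181), was at 338, 420.3 and 437 CPM in Treg libraries 01, 02 and 03. Itgae, which encodes CD103, the integrin chain that binds E-cadherin (chromosome 11, 73090583 to 73147446), was at 141, 213 and 228 CPM. The vehicle library was the lowest of the 3 for both genes. Lamc1 (a laminin chain) at 70.4 ± 6.59 CPM, Myo1e (a myosin) at 62.9 ± 1.87 CPM, Ccr6 (a chemokine receptor of type 17 cells and some Treg) at 51.7 ± 5.37 CPM, Rgs9, Ttn and Syp completed the 8 highest. In the Tcon table the highest were Pdlim4, a cytoskeletal adaptor gene, at 43.6, 36.8 and 45.5 CPM, and Lypd6b at 33.6, 28.2 and 29.5 CPM. The next were A530021J07Rik, Lrrc75b, Il1rl2 (an IL-36 receptor), Klrd1 (the natural killer receptor chain CD94), Cnga1 and Dntt (the terminal transferase of lymphocyte development), the last at 9.41 ± 0.925 CPM.

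Whether the cell type difference itself changed with the peptide was tested with 1 vehicle pair against 2 peptide pairs in lymph node. This fit had no block, so it did not use the pairing, and its spread came from the peptide libraries alone. No gene passed, 0 of 9784 (0%) in the limma fit, and 249 genes had an unadjusted p under 0.05. The lowest adjusted p was 0.20997, for Tmsb10, which encodes the actin-binding thymosin beta 10 and was named after its values were seen. Tmsb10 was at 427, 267 and 258 CPM in Treg against 462, 536 and 486 CPM in Tcon, so that the vehicle Treg library lay above the peptide Treg libraries. The difference for Foxp3 moved by -0.081 and that for Il2ra by 0.24 on the log2 scale from vehicle to peptide pairs, both with adjusted p = 0.999. With a single vehicle pair smaller changes may not be detectable, and this result does not show that the pairs are alike.

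The same contrast in spleen, from the other 6 libraries of the series (1 vehicle and 2 peptide pairs, numbers 04 to 06), was used to ask which of these differences depend on the organ. Of the 838 genes over 2-fold in lymph node, 832 had the same sign in spleen and 658 were also over 2-fold there. The difference between organs was called for 450 genes (4.6%), 222 with a more positive Treg minus Tcon difference in lymph node (2.27%) and 228 with a more negative one (2.33%). This count rests on few libraries and on the model: it was 102 without the block, 199 without pair 03 and 205 without pair 05. The Foxp3 difference was 4.76 in lymph node and 4.86 in spleen, and its change between organs was not called (interval of the difference -0.22 to 0.021, adjusted p = 0.381). The other markers differed more in lymph node, Il2ra by 0.87 (0.595 to 1.15), Ikzf2 by 0.65 (0.39 to 0.91) and Nrp1 by 1.002 (0.62 to 1.39). The Ikzf2 call was lost without the block and without pair 05 (adjusted p = 0.198 and 0.0540). Coro2a was at 291, 285 and 298 CPM in spleen Treg and 11.6, 10.7 and 12.5 CPM in spleen Tcon, so its larger lymph node difference (by 2.08) came with a lower level in lymph node Tcon.

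The 3 largest positive organ differences were those of Nkg7, Cxcr6 and Klrb1c, each higher in all spleen Tcon libraries than in any lymph node Tcon library. For Klrb1c this order was set by the listing through spleen. Its lymph node Tcon values (0.480, 0.664 and 0.332 CPM) all lay under the 1.97 CPM of listed genes. Nkg7 lay under it in lymph node Tcon libraries 01 and 03 (1.36 and 1.07 CPM), so its listing needed spleen as well. Nkg7 was at 21.2, 14.8 and 16.3 CPM in spleen Tcon and 9.05, 11.3 and 10.8 CPM in spleen Treg, and its difference was 3.001 in lymph node against -0.69 in spleen. Cxcr6 was at 38.4, 19.1 and 23.9 CPM and 3.84, 2.91 and 2.96 CPM in spleen Tcon and Treg, and Klrb1c, which encodes the natural killer receptor NK1.1, at 23.6, 10.9 and 13.4 CPM and 3.18, 3.67 and 3.31 CPM. Ifng and Tbx21 turned sign as well, being higher in Treg in lymph node (1.07 and 0.77) and lower in Treg in spleen (-1.09 and -1.01). Socs2 and Ccr2 stayed higher in Treg in both organs, but by less in spleen (2.76 and 1.44). In Tcon both were listed through spleen, so their higher level in spleen Tcon was needed for listing. In the other direction, the differences of Ccr8 and Adam8, a metalloprotease gene, were larger in spleen, at 3.67 and 2.28 against 2.67 and 1.23 in lymph node. Adam8 was at 19.9, 12.5 and 16.8 CPM in spleen Treg, above its 5.03, 4.502 and 6.16 CPM in lymph node Treg. Ccr8 overlapped between spleen Treg (50.8, 44.3 and 34.3 CPM) and lymph node Treg (48.4, 57.98 and 53.9 CPM), while its Tcon level was lower in spleen (3.02, 2.204 and 2.13 CPM against 6.21, 7.898 and 8.73 CPM). Itgam, which encodes CD11b, was lower in Treg in lymph node (-1.32) and near even in spleen (-0.079). Ca2 and Slc4a1, red cell genes, were at 7.48, 6.95 and 35.9 CPM and 11.4, 7.91 and 103 CPM in spleen Treg and 8.91, 7.05 and 29.6 CPM and 4.21, 3.38 and 49.997 CPM in spleen Tcon, with library 06 the highest in each. Without the block, the organ calls of Adam8, Ca2 and Slc4a1 were lost (adjusted p = 0.0856, 0.509 and 0.836). In lymph node, Ca2 was at 0.850, 1.08 and 1.25 CPM in Treg against 4.24, 4.84 and 4.65 CPM in Tcon. Slc4a1 was at 0 in all 3 lymph node Tcon libraries and at 0.0459, 0.0614 and 0.0235 CPM in lymph node Treg, too low for a fold. Ca2 in Treg and Slc4a1 in both cell types were thus listed through spleen.

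**Figure D5:**
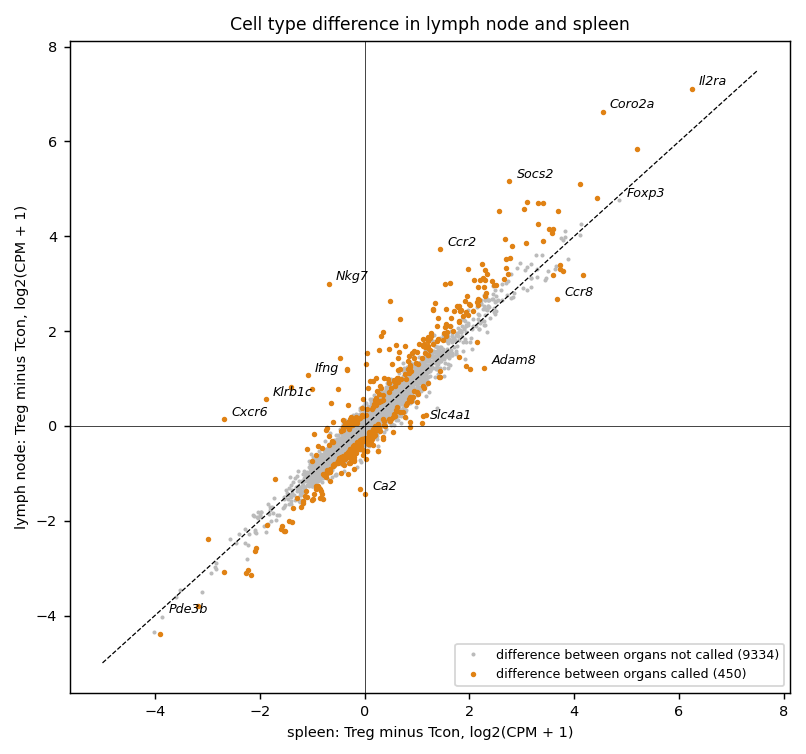
Treg minus Tcon difference, log2(CPM + 1), in lymph node against that in spleen for 9784 genes, with the dashed line marking equality. Orange points are the 450 genes whose difference between organs was called; Nkg7 lies above 0 in lymph node and at -0.69 in spleen, while Foxp3 and Pde3b lie near the line.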

How the data were processed

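RNA sequencing libraries from 3 Treg and 3 Tcon lymph node samples were compared, with the 6 spleen libraries for the organ contrast. The submitters' processing notes name TopHat, Bowtie and edgeR and the build mm10. Versions, annotation and the counting program: not given in the sources used here. For either cell type the authors deposited 1 table of normalized signal, named CPM in the file headers. Column totals ran from 971928 to 1021433, so each library had a scaling factor of its own. In lymph node, the lowest values were spaced by 0.0218 to 0.0267 CPM, and 100% of values lay within 0.1 of a step of a whole multiple. If that step is 1 read, the listed genes hold 36442420 to 45320889 reads per library.

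Treg values were divided by the median ratio of shared genes (1.06 in either organ), and log2(CPM + 1) was tested with limma 3.58.1 in R 4.3.3 with an intensity trend, the library number as a block and Benjamini-Hochberg adjustment at 0.05. The lymph node fit has 2 residual degrees of freedom per gene, the organ fit 4. The fit for a change with the peptide had no block, and its 2 residual degrees of freedom came from peptide libraries alone. The numbers pair the libraries: deviations from the cell type means correlated at 0.419, 0.425 and 0.441 for the same number and at -0.195 to -0.230 otherwise. Because deviations from a mean cancel out, the negative values follow from the positive ones and add no evidence. In data simulated from these libraries (9784 genes), the lymph node fit called 90% of 1.5-fold and 99% of 2.25-fold changes and 2 of 9584 unchanged genes. The simulation changed 100 genes at each fold, with independent noise and without the rescaling between tables. In the real data 73.8% of genes were called, so these rates do not describe the real calls.

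The members and gene lists were chosen with earlier results of these data known. Genes were named by size: the 4 markers, the 12 largest differences per direction at 5 CPM or more in the higher cell type, up to 4 called members per list and direction, up to 5 per direction for each interaction, and the 8 highest of each table alone. Of the members that did not pass, those printed were picked after their values were seen, and Cd4, Cd3e, Cd3d, Il2rg, Jak1, 6 cytokine receptor chains, Ccdc22, Ppp1r3f and Tmie were likewise added. Some genes that the rule names are not reported here. Gene positions are from GENCODE M21 (mm10), which matched 10076 of 10507 symbols (95.9%). Promoters are from RefSeq. The promoter search used the 250 bases before the start, without the 50 after it. Alternatives were other scalings, pseudocounts, filters and models and leaving out each pair.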

Additional observations from a re-analysis of the deposited data

Results flagged for a closer look

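A total of 10 genes had a Treg minus Tcon difference that differed between lymph node and spleen by the interaction test and were the 5 largest in each direction. The values are lymph node minus spleen on the log2(CPM + 1) scale, with 95% confidence intervals. More positive in lymph node were Nkg7 (3.69, 3.32 to 4.05), Cxcr6 (2.82, 2.43 to 3.21), Klrb1c (2.45, 1.94 to 2.96), Socs2 (2.402, 2.08 to 2.72) and Ccr2 (2.28, 1.896 to 2.66). More negative in lymph node were Ca2 (-1.45, -1.75 to -1.14), Itgam (-1.25, -1.55 to -0.94), Adam8 (-1.06, -1.36 to -0.75), Slc4a1 (-1.04, -1.36 to -0.73) and Ccr8 (-1.0004, -1.23 to -0.77). Some of the 10 were listed through spleen, with all 3 lymph node values under 1.97 CPM (Tcon) or 1.98 CPM (Treg). They were Socs2 and Ccr2 in Tcon, Ca2 in Treg, and Klrb1c and Slc4a1 in both. Their higher spleen level in that cell type was needed for listing and is not a finding of its own. Without the library number as a block, Adam8, Ca2 and Slc4a1 lost their calls (adjusted p = 0.0856, 0.509 and 0.836). The 2 red cell genes among these, Ca2 and Slc4a1, were highest in both spleen libraries numbered 06. In lymph node, Ca2 was lower in Treg than in Tcon, while Slc4a1 was at 0 in Tcon. The part of red cell RNA in their values was not tested.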

How the results depend on the processing

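In lymph node, the counts of called genes, in each direction and over 2-fold, stayed within 1.5 times their values under every alternative run. All 838 genes over 2-fold stayed called in the same direction wherever they were tested (772 at a mean of at least 5 CPM, 809 at 1 CPM or more in all libraries, 823 with 1 symbol per set of identical values). Leaving out 1 pair gave 6449 to 7038 calls, 3235 to 3533 higher and 3214 to 3505 lower. With TMM factors in place of the median ratio 3626 genes were called higher and 3582 lower. The organ contrast depended on the model. Without the replicate block it called 102 genes, 81 more positive and 21 more negative, and with 1 pair left out 199 to 420 (124 to 209 and 75 to 218), the lowest without pair 03; without pair 05 it called 205. For SAH against vehicle, both other pseudocounts gave 0 calls, as in the fit reported. Of 186 named genes, 7 lost their call without the replicate block in lymph node, 4 without rescaling. Reversals touched genes that had not passed. Without rescaling Ccdc22 (0.055), Jak2 (0.081), Jun (0.00570) and Pkm (0.029) changed sign. With 1 pair left out, the range spanned 0 for Mcm7 (-0.015 to 0.031), Bach2 (-0.028 to 0.042), Ccdc22 (-0.11 to 0.031), Hsf1 (-0.017 to 0.069), Jak2 (-0.017 to 0.000845), Jund (-0.27 to 0.31), H2-Aa (-0.069 to 0.092), Jun (-0.198 to 0.025) and Stat4 (-0.00599 to 0.062). The values step in whole multiples, but tests on reads rebuilt from them, planned with edgeR, were not run. Intervals rest on 3 pairs, and the lowest genes on few reads. The cause of these changes was not tested.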
